A study of Mus musculus with 12 samples.

Results

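The genes described here are type I interferon-stimulated genes, measured in endothelial cells sorted from the mouse cerebral cortex. A list of 39 such genes was followed over 4 genotype groups and 12 libraries, with and without the wild-type library in which they stood highest. The gene table held 37 of the 39 genes among its 21638 genes, and 36 of the 37 passed the filter on low genes (12-library mean count of 10 or more). Oas3, an oligoadenylate synthetase, was the gene that did not pass, and its level was at most 0.208 CPM in any library. CPM is the count of a gene per 1000000 counts of the scaled library. Mx1 and Mx2 were not analysed here. The genes were chosen by their known induction by interferon and selected on their levels over the groups of these libraries, so differences from wild type (WT) are given as a description and support nothing by themselves.

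RNA was sequenced from sorted CD31+/CD41-/CD45- cells, a gate that takes endothelium and leaves out platelets and leukocytes. Each of the 4 groups had 3 libraries, numbered 1, 2 and 3 in the sample titles. The wild-type group is called WT. Hdac2 ECKO cells came from Hdac2lox/lox:Cdh5CreERT2 mice, in which a tamoxifen-inducible Cre recombinase driven by the Cdh5 (VE-cadherin) promoter acts in endothelium on the gene of a histone deacetylase. Ezh2 ECKO cells came from Ezh2lox/lox:Cdh5CreERT2 mice, aimed at the histone methyltransferase of Polycomb repressive complex 2. Because the Ezh2 level was not lower in these libraries than in WT, they are called the Ezh2-labelled libraries. Beta-catenin GOF cells, with constitutively active beta-catenin, came from Ctnnb1lox/lox:Cdh5CreERT2 mice. Mutant mice were adult and had received 5 tamoxifen doses of 75 mg/kg, and brains were taken 2 months later. Whether WT mice carried Cre or received tamoxifen is not stated in the labels, nor is the part of Ctnnb1 between the lox sites. The labels do not say that libraries of a group came from separate animals, so p-values measure the spread between these libraries, which may be technical.

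Type I interferons bind a receptor made of Ifnar1 and Ifnar2, and the kinases Jak1 and Tyk2 then activate transcription factors. Stat2 and Irf9 act in the complex ISGF3, which binds the interferon-stimulated response element in promoters of genes such as Isg15, Oas1a and the Ifit family. The products sense viral nucleic acid, block viral translation, degrade viral RNA and restrain virus entry, and Usp18 limits the signal at the receptor. Brain endothelium carries the interferon receptor and forms the blood-brain barrier, where interferon signalling is known to tighten the junctions between cells.

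Promoter sequences were examined first because ISGF3 acts by binding promoters. Binding to the listed genes was not measured here. RefSeq promoters (GRCm38.p6, 250 bases before to 50 after the start) were matched for 29 of the 37 genes in the table. A core of the interferon-stimulated response element is a run of GAAA, any 2 bases and GAAA again. It was found on either strand in 14 of the 29 genes (48.3%), against 3.86% of the tested genes. Counted by promoter, 15 of 33 (45.5%) held it, against 3.44% of all 32851 promoters. The letters TTCNNNGAA, a core of the gamma-activated site, were found in 7 of 29 genes (24.1%) against 8.39% of the tested genes. By promoter, 7 of 33 (21.2%) held them, against 8.3% of all promoters. TTCNNNGAA reads the same on both strands, and in Bst2 a match overlaps the first response element match. The genes below are a selection of those that hold a match in this window. Stat2, Oas3, Rsad2 and Trim30a, not shown, also hold a response element match before the start. In Ifitm3, Ifih1, Ddx58 and Eif2ak2, not shown either, the matches lie only after the start. On average Stat2, Trim30a, Ifih1, Ddx58 and Eif2ak2 were higher in Hdac2 ECKO than in WT, and Rsad2 and Ifitm3 were lower. Capitals mark the response element matches, which read TTTC, 2 bases and TTTC where they lie on the other strand, except in Irf1, where they mark TTCNNNGAA. All are written 5′ to 3′ on the strand of the gene.
Isg15, chr4:156200855-156200916, minus strand: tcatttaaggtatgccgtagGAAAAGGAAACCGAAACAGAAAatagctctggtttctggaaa
Ifit1, chr19:34640765-34640833, plus strand: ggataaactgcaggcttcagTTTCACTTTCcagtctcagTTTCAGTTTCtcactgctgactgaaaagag
Ifit3, chr19:34583353-34583436, plus strand: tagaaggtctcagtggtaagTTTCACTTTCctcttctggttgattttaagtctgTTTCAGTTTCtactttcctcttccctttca
Ifit3b, chr19:34607749-34607832, plus strand: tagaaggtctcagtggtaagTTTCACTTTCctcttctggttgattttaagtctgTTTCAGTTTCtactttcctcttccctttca
Oas1a, chr5:120907526-120907565, minus strand: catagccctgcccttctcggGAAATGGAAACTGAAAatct
Bst2, chr8:71537567-71537622, minus strand: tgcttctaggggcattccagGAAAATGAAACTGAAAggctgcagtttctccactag
Irf1, chr11:53769899-53769958, plus strand: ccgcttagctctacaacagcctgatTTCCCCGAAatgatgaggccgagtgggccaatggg
Isg15 carries 3 overlapping matches, the first starting 78 bases before the start and the last 66 bases before it. Oas1a carries 2 overlapping matches that begin 20 and 14 bases before its start. The Ifit3 and Ifit3b stretches were identical at 84 of 84 bases, and the genes are near copies, so reads may have been split between them. Irf1, Irf7, Irf9, Oasl2 and Ifi44 were among the 15 genes with no response element match in this window.

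The libraries held between 24781070 and 36109975 counts, so that 3 counts, taken as the floor, were worth 0.0792 to 0.118 CPM. Endothelial markers (12 genes, Pecam1, Cdh5 and Cldn5 among them) summed to 9019 to 11187 CPM in WT and 8705 to 11644 CPM in the mutants. Single markers varied more than the sum. Their log2 fold changes against WT ran from -1.38 to 0.72 in Hdac2 ECKO and from -1.31 to 0.75 in the Ezh2-labelled libraries. In beta-catenin GOF they ran from -0.59 to 0.55. In Hdac2 ECKO 1 of the 12 was lower at an edgeR adjusted p under 0.05 (0.034), against 5.38% of all tested genes. Markers shared by all leukocytes (5 genes, Ptprc among them) summed to 7.81 to 11.6 CPM in WT and 0.357 to 3.58 CPM in the mutants, without overlap. All 5 passed the filter, and Cd53 was at 2.08 to 2.85 CPM in WT and had 0 counts in all 9 mutant libraries. The targeted genes were checked by level. In WT Hdac2 stood at 129 ± 30.1 CPM, against 96.5 ± 15.2 CPM in Hdac2 ECKO (SD, n = 3, edgeR adjusted p = 0.22), and the groups overlapped. Hdac2 was as low in beta-catenin GOF, at 96.2 ± 10.1 CPM, and stood at 121 ± 17.1 CPM in the Ezh2-labelled libraries. The Hdac2 level thus did not set Hdac2 ECKO apart from the other groups. Ezh2 averaged 6.75 ± 3.52 CPM in WT, against 8.92 ± 3.36 CPM in the Ezh2-labelled libraries, higher on average than in WT. The 2 groups overlapped in Ezh2 (edgeR adjusted p = 0.61). Ctnnb1 averaged 654 ± 138 CPM in WT, against 583 ± 109 CPM in beta-catenin GOF. A count per gene does not resolve exons in any of these targeted genes.

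The second WT library, WT 2, stood apart from all others in the interferon-stimulated genes. It was singled out as the WT library with the highest mean log2(CPM + 0.5) over these same genes. The counts and ratios given for it are therefore partly set by that choice and are a description only. Of the 36 tested genes, 27 had their highest level of the 12 libraries in WT 2, where 7.53% of all 12577 tested genes did. Within WT, 31 of 36 were highest in WT 2, and the other WT libraries took no fixed order: 15 genes ran WT 2, WT 1, WT 3 from high to low and 16 ran WT 2, WT 3, WT 1. The mean of log2(CPM + 0.5) over the 36 genes was 5.88, 6.88 and 5.93 in WT 1, 2 and 3. It was 5.52, 5.62 and 5.71 in Hdac2 ECKO, 5.73, 5.34 and 5.73 in the Ezh2-labelled libraries, and 5.70, 5.80 and 5.62 in beta-catenin GOF. Thus WT 1 and WT 3 lay just above the mutants on this mean, with beta-catenin GOF 2 nearest, and WT 2 lay well above every other library.

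The ratio of WT 2 to the mean of WT 1 and WT 3, after 0.5 CPM was added to each level, had a median of 1.88 over the 36 genes, with a range from 0.81 to 7.84. The median over all tested genes was 0.97. At least 2-fold ratios were found for 16 of 36 genes (44.4%), against 3.58% of all tested genes. A ratio of at least 4 was reached by Zbp1 alone of the 36 genes, against 0.437% of all tested genes, and none reached 8, which 0.175% of all tested genes did. With 1 library on that side no test was possible. Markers of T and NK cells (9 genes) summed to 0.0694, 4.24 and 1.74 CPM in WT 1, 2 and 3 and reached 3.60 CPM in Hdac2 ECKO 1. Gzma alone of the 9 passed the filter, Cd4 was at 0 in all 12 libraries, and the part of these cells in the WT 2 levels was not tested.

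**Figure D1:**
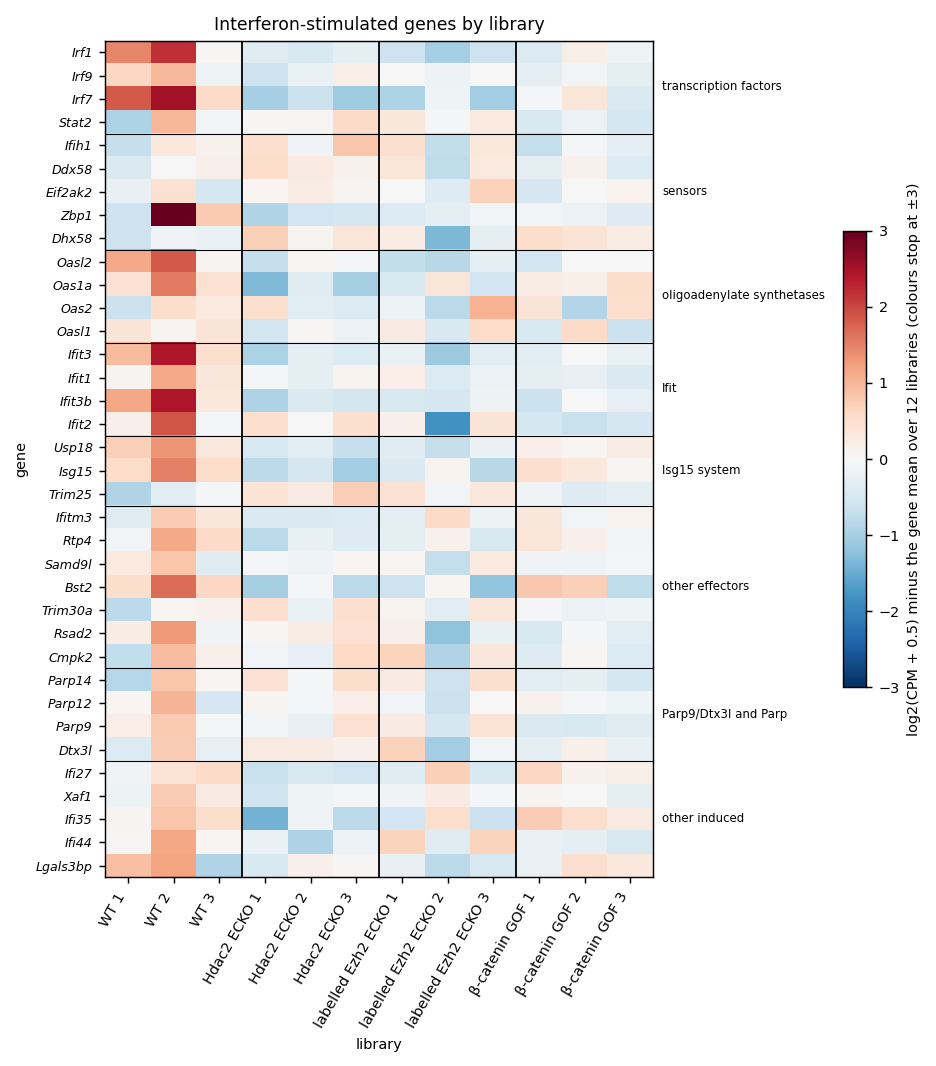
Level of each of the 36 tested interferon-stimulated genes (rows, by role) in each of the 12 libraries (columns), as log2(CPM + 0.5) minus the mean of the gene over the libraries; red is above and blue below the mean. The WT 2 column is the reddest, and 27 of the 36 genes are highest there.

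Irf7, Irf1, Irf9 and Stat2 are the transcription factors of the list. Irf7, the factor that amplifies interferon production, stood at 114, 184 and 47.0 CPM in WT. It was at 15.4, 19.8 and 14.8 CPM in Hdac2 ECKO, at 16.2, 28.9 and 15.1 CPM in the Ezh2-labelled libraries, and at 30.0, 40.8 and 23.1 CPM in beta-catenin GOF. All 9 mutant libraries were below all 3 WT libraries, although the lowest WT library and the highest beta-catenin GOF library were close. The Irf7 mean was 6.89-fold lower in Hdac2 ECKO than in WT, 5.73-fold lower in the Ezh2-labelled libraries and 3.67-fold lower in beta-catenin GOF, as fitted. Irf7 overlaps Phrf1 on the opposite strand (chromosome 7, 141262706 to 141266481, GRCm38), and the use of strand in counting is not given in the sources used here.

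Irf1, which responds to both interferon types, was at 137, 228 and 50.9 CPM in WT. In Hdac2 ECKO it was at 38.6, 35.9 and 40.7 CPM, and in the Ezh2-labelled libraries at 32.1, 24.6 and 32.1 CPM. Beta-catenin GOF libraries held 37.2, 55.6 and 45.1 CPM of Irf1, and here WT 3 fell inside the mutant range. Irf9, the DNA-binding part of ISGF3, was at 87.8, 112 and 52.1 CPM in WT, whereas Hdac2 ECKO libraries held 36.7, 49.2 and 65.4 CPM. It stood at 57.0, 50.8 and 57.0 CPM in the Ezh2-labelled libraries and at 46.4, 53.7 and 46.5 CPM in beta-catenin GOF, so each mutant overlapped WT. Irf9 lies within a locus annotated as overlapping Rnf31 on the same strand, so reads may be shared. Stat2 had a different profile: WT 2 was highest at 66.2 CPM, but WT 1 was the lowest of the 12 libraries at 16.9 CPM.

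Among the sensors, Ifih1 and Ddx58 detect double-stranded and 5′-triphosphate RNA in the cytosol. Ifih1 was at 39.9, 81.2 and 71.1 CPM in WT, at 92.1, 60.8 and 116 CPM in Hdac2 ECKO, at 91.7, 38.6 and 80.5 CPM in the Ezh2-labelled libraries, and at 39.7, 63.2 and 53.4 CPM in beta-catenin GOF. Ddx58 was at 27.6, 37.0 and 41.7 CPM in WT, at 55.4, 44.9 and 41.3 CPM in Hdac2 ECKO, at 48.1, 22.1 and 45.9 CPM in the Ezh2-labelled libraries, and at 31.0, 41.3 and 28.0 CPM in beta-catenin GOF. Both sensors overlapped WT in every mutant, and neither had its highest level of the 12 libraries in WT 2. Zbp1, a sensor of Z-form nucleic acid that triggers necroptosis, was at 8.19, 124 and 22.6 CPM in WT. Its mutant libraries lay between 6.59 and 12.1 CPM, so WT 1 was inside the mutant range and the WT mean rested on WT 2. Dhx58, a helicase that modulates Ifih1 and Ddx58, was low throughout, at 2.50 to 3.80 CPM in WT. Hdac2 ECKO libraries held 4.41 to 7.08 CPM of it and beta-catenin GOF libraries 4.91 to 6.24 CPM. It stood lower in WT than in either of those mutants without overlap.

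The oligoadenylate synthetase family makes the second messenger that activates RNase L. Oasl2, a family member known for its ubiquitin-like domains, was at 141, 229 and 66.8 CPM in WT, at 39.4, 65.5 and 60.4 CPM in Hdac2 ECKO, at 37.8, 35.2 and 52.7 CPM in the Ezh2-labelled libraries, and at 42.7, 64.4 and 64.2 CPM in beta-catenin GOF. Every mutant library was below every WT library, with WT 3 only slightly above the mutants. Oas1a was at 70.3, 154 and 71.6 CPM in WT, at 20.6, 40.6 and 25.7 CPM in Hdac2 ECKO, at 38.0, 67.2 and 35.1 CPM in the Ezh2-labelled libraries, and at 60.7, 59.2 and 75.0 CPM in beta-catenin GOF. Beta-catenin GOF thus overlapped WT in Oas1a, and the other mutants did not. Oas2 and Oasl1 stayed under 10 CPM in all libraries, the highest value being 9.84 CPM.

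The Ifit genes encode proteins that bind foreign RNA and block its translation. Ifit3 was at 310.0, 869.9 and 226 CPM in WT. In Hdac2 ECKO it was at 83.0, 132 and 122 CPM, in the Ezh2-labelled libraries at 140.0, 75.1 and 127 CPM, and in beta-catenin GOF at 128, 162 and 139.6 CPM. Ifit3 therefore separated all mutants from all WT libraries, and so did Ifit3b, whose mutant levels lay between 29.2 and 55.6 CPM against 68.9 to 300.1 CPM in WT. Ifit1 was at 188, 389 and 223 CPM in WT, at 169, 145 and 191 CPM in Hdac2 ECKO, at 201, 132 and 155 CPM in the Ezh2-labelled libraries, and at 145, 149 and 130.3 CPM in beta-catenin GOF. Only beta-catenin GOF was below WT without overlap in Ifit1. Ifit2 was also below WT without overlap only in beta-catenin GOF, with 14.7 to 16.6 CPM against 23.2 to 89.0 CPM.

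Isg15 is the ubiquitin-like modifier of the response, Usp18 removes it from proteins and Trim25 is a ligase that acts on Ddx58. Isg15 was at 99.7, 195 and 98.9 CPM in WT, at 39.4, 48.0 and 32.4 CPM in Hdac2 ECKO, at 50.3, 72.8 and 38.0 CPM in the Ezh2-labelled libraries, and at 96.8, 84.5 and 68.9 CPM in beta-catenin GOF. Usp18 was at 120.3, 182 and 89.9 CPM in WT, at 51.9, 57.4 and 44.9 CPM in Hdac2 ECKO, at 56.4, 44.2 and 63.4 CPM in the Ezh2-labelled libraries, and at 80.3, 75.7 and 85.6 CPM in beta-catenin GOF. In both genes the mutants were all below WT, beta-catenin GOF by the narrowest margin. Trim25 went the other way, at 29.5, 43.6 and 54.5 CPM in WT, at 73.7, 65.6 and 92.3 CPM in Hdac2 ECKO, at 75.3, 52.3 and 69.0 CPM in the Ezh2-labelled libraries, and at 51.9, 42.2 and 45.6 CPM in beta-catenin GOF.

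**Figure D2:**
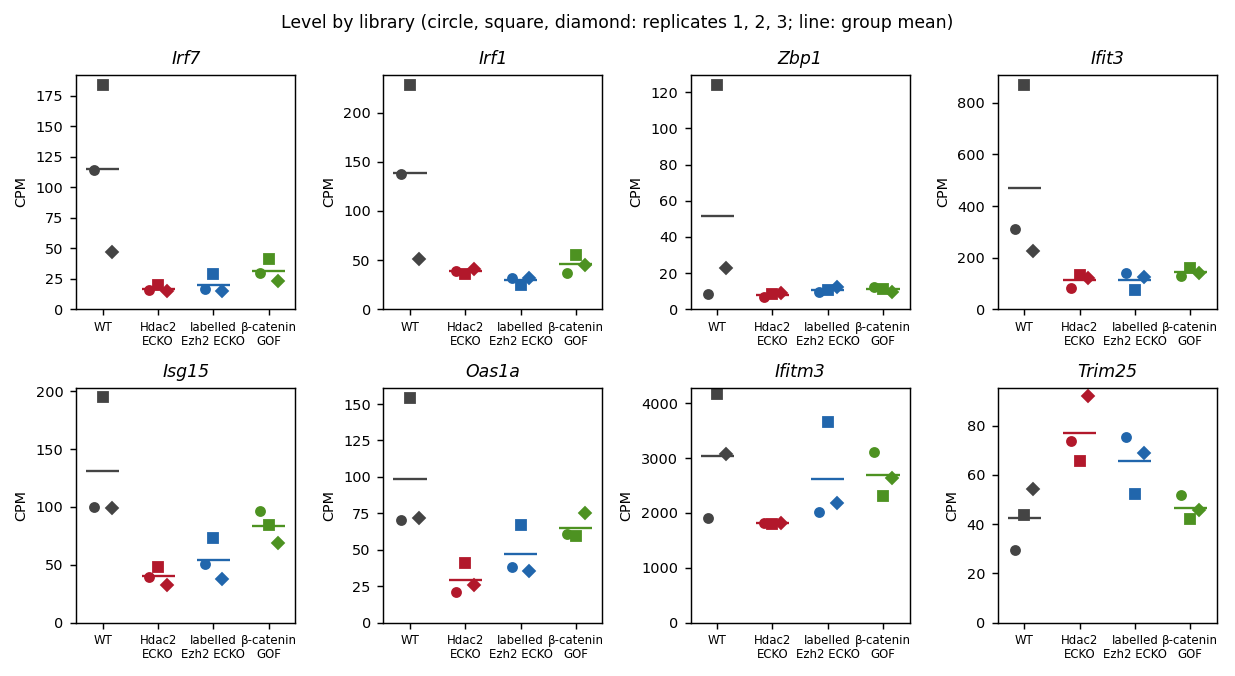
Level in CPM (linear axes from 0) of 8 interferon-stimulated genes in each library; circles, squares and diamonds are replicates 1, 2 and 3 and the line is the group mean. WT 2, the square of the WT group, is highest in 7 of the panels, Zbp1 at 124 CPM among them, and Trim25 is highest in Hdac2 ECKO 3 at 92.3 CPM.

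Among other effectors, Ifitm3 restricts virus entry at endosomes and had the highest level per kilobase of gene length in every group. Its mean was 4491 CPM per kilobase in WT, followed by Ifi27, a mitochondrial protein, at 401 and Ifit3 at 269. Ifitm3 was at 1905, 4162 and 3068 CPM in WT, at 1819, 1798 and 1820.4 CPM in Hdac2 ECKO, at 2023, 3659 and 2177 CPM in the Ezh2-labelled libraries, and at 3110.2, 2306 and 2636 CPM in beta-catenin GOF. Hdac2 ECKO was below WT without overlap by a small distance, and the other mutants overlapped WT. Rtp4, a negative regulator of interferon responses, was at 316, 740.3 and 497 CPM in WT, at 191, 289.6 and 255 CPM in Hdac2 ECKO, at 278, 366 and 239 CPM in the Ezh2-labelled libraries, and at 435, 371 and 318 CPM in beta-catenin GOF. Again Hdac2 ECKO alone did not overlap WT, and Rtp4 overlaps Masp1 on the opposite strand. Bst2 (tetherin), which holds budding virions at the cell surface, was at 152 to 338 CPM in WT, from 52.8 to 103 CPM in Hdac2 ECKO, from 45.8 to 109 CPM in the Ezh2-labelled libraries and from 62.1 to 184 CPM in beta-catenin GOF.

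Parp14 and Parp12 are ADP-ribosyltransferases induced by interferon. Parp14 was at 21.0, 69.5 and 40.4 CPM in WT, at 51.8, 37.9 and 55.9 CPM in Hdac2 ECKO, at 46.5, 24.8 and 53.9 CPM in the Ezh2-labelled libraries, and at 31.0, 32.2 and 26.7 CPM in beta-catenin GOF. Parp12 was at 34.2, 67.9 and 23.1 CPM in WT, at 34.8, 31.9 and 38.0 CPM in Hdac2 ECKO, at 31.1, 21.0 and 32.5 CPM in the Ezh2-labelled libraries, and at 36.2, 32.0 and 29.9 CPM in beta-catenin GOF. For both genes WT 2 was the highest library and every mutant overlapped WT. Parp9 and Dtx3l, which act as a complex and overlap on opposite strands, lay between 18.0 and 44.6 CPM and between 8.82 and 32.2 CPM.

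Of the other induced genes, Ifi27 was at 438, 625 and 701 CPM in WT, at 299, 339.7 and 317 CPM in Hdac2 ECKO, at 368, 776 and 345 CPM in the Ezh2-labelled libraries, and at 729, 514 and 535 CPM in beta-catenin GOF. Its highest library was Ezh2 ECKO 2, and only Hdac2 ECKO was below WT without overlap. Xaf1, a pro-apoptotic protein, was at 302, 573 and 408 CPM in WT, at 221, 308 and 328 CPM in Hdac2 ECKO, at 314, 400.4 and 321 CPM in the Ezh2-labelled libraries, and at 359, 332 and 279 CPM in beta-catenin GOF. Each mutant overlapped WT in Xaf1. Ezh2 ECKO 2 was uneven across the list: it was the lowest of the 12 libraries for 14 genes, Ifit2 at 6.38 CPM among them, and yet the highest for Ifi27 and the second highest for Ifitm3. That library also had the highest sum of neutrophil and platelet markers, 204 CPM against 9.04 to 64.3 CPM elsewhere, and their part in its values was not tested.

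**Figure D3:**
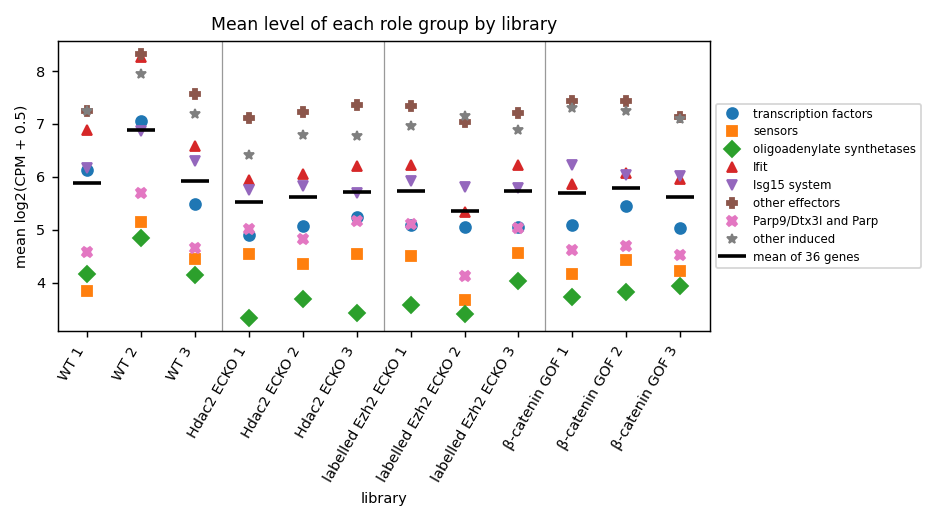
Mean of log2(CPM + 0.5) over the tested genes of each role, by library; symbols are roles and the black bar is the mean of the 36 genes. The bar of WT 2 stands at 6.88 and all others lie between 5.34 and 5.93.

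Differences from WT were then fitted in 1 edgeR quasi-likelihood model over the 12 libraries. The 3 contrasts share the WT libraries, so their values are set side by side and not compared with each other. In bulk RNA, fewer cells of a type and less RNA per cell cannot be told apart. The median log2 fold change of the 36 genes was -0.64 in Hdac2 ECKO, -0.48 in the Ezh2-labelled libraries and -0.52 in beta-catenin GOF, against 0.10, 0.05 and 0.01 over all tested genes. Values below 0 were found for 27, 30 and 31 of the 36 genes, against 46%, 47.4% and 48.9% of all tested genes. Without WT 2 the medians were -0.33, -0.20 and -0.12, and 22, 22 and 24 of the 36 genes were below 0. Each median of the list kept its sign and moved toward 0. WT 2 was singled out by its high level in these genes, so the direction of this move follows largely from that choice.

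In Hdac2 ECKO, 11 of 36 genes were called lower (Benjamini-Hochberg adjusted p under 0.05 over all tested genes), against 5.38% of all tested genes called lower. They were Irf7, Irf1, Zbp1, Ifit3, Ifit3b, Isg15, Usp18, Oasl2, Oas1a, Bst2 and Rtp4, and none was called higher, where 3.82% of all tested genes were. Because the list was drawn up with these contrasts known, nothing is read from the share. The count moved with single libraries, as did that of the whole table. It was 0 without WT 1, WT 2 or Hdac2 ECKO 3, when 0% of all tested genes were called, and 0 without Hdac2 ECKO 1, when 0.0239% were. It was 14 without WT 3 (14.9% of all tested genes) and 13 without Hdac2 ECKO 2 (17.6%). In the fit without WT 2, 14 of the 36 genes (25.4% of all tested genes) were under an unadjusted p of 0.05. The fold changes of the called genes were smaller without WT 2 but stayed below 0. Irf7 went from -2.78 (SE 0.43) to -2.27, Irf1 from -1.85 (SE 0.39) to -1.29, and Isg15 from -1.72 (SE 0.32) to -1.32. Oas1a went from -1.77 to -1.29, Ifit3 from -2.06 to -1.25 and Bst2 from -1.60 to -1.13. Zbp1 moved most, from -2.70 (SE 0.66) to -0.95. Trim25 stayed above 0, at 0.86 with and 0.88 without WT 2.

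Values of Hdac2 ECKO and WT did not overlap for 15 genes that were lower (18.2% of all tested genes) and 2 that were higher, Dhx58 and Trim25 (19.5% of all tested genes). Without WT 2, the 15 lower genes were joined on the other side by 5 higher, Dhx58, Stat2, Dtx3l, Trim25 and Eif2ak2, against 21.1% lower and 24% higher of all tested genes. Gene length moved with the fold change in this contrast. When the tested genes were split by length into 3 equal classes, the 14 list genes in the shortest class had a median log2 fold change of -1.13 (all tested genes of that class -0.48), the 16 in the middle -0.31 (all 0.07), and the 6 in the longest 0.09 (all 0.56). In each class the median of the list lay below that of all genes. With the length trend removed, 9 genes were called (4.86% of all tested genes), 8 of them among the 11, and Ifit3, Rtp4 and Usp18 were no longer called. Markers of other cells moved with this contrast too. The sum of the 5 leukocyte markers was lower in the mutants, as given above. Of the 5, 5, 4 and 4 had log2 fold changes below 0 in Hdac2 ECKO, the Ezh2-labelled libraries and beta-catenin GOF. Without WT 2 these were 3, 4 and 4. Called lower were 1, 1 and 0 of the 5 leukocyte markers, against 5.38%, 0.684% and 0% of all tested genes. The smallest edgeR adjusted p was 0.034, 0.048 and 0.35. Without WT 2, 0 of the 5 were called in each contrast (0%, 0.0159% and 0% of all tested genes). Microglia and macrophage markers (10 genes, 4 tested and none called) summed to 3.10 to 12.0 CPM in WT and 2.01 to 15.5 CPM in the mutants, with overlap. Pericyte and smooth muscle markers (9 genes, all tested) summed to 67.5 to 124 CPM in WT and 129 to 320.4 CPM in Hdac2 ECKO, and 3 of the 9, Pdgfrb, Rgs5 and Myh11, were called higher there (0 without WT 2, when 4 were under an unadjusted p of 0.05). Their sum was 57.8 to 76.2 CPM in the Ezh2-labelled libraries and 122 to 381 CPM in beta-catenin GOF. Astrocyte markers (5 genes, 3 tested and none called) summed to 24.0 to 34.5 CPM in WT and 35.8 to 77.6 CPM in the mutants, without overlap. The single markers did not all follow the sum. Of the 3 tested, 1, 1 and 2 were below 0 in Hdac2 ECKO, the Ezh2-labelled libraries and beta-catenin GOF. Their lowest log2 fold changes were -2.25, -2.13 and -0.95. The part of these cells in the differences from WT was not tested.

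In the Ezh2-labelled libraries, 6 of 36 genes were called lower than in WT, against 0.684% of all tested genes, and 0 higher, against 0.342%. They were Irf7, Irf1, Ifit3, Ifit3b, Oasl2 and Usp18. A fit of only these 2 groups called 0 of the 36 (0.135% of all tested genes), and scaling by library total left 2 (0.239%). None of the 36 was called without WT 1 or WT 2 (0.0159% of all tested genes in either fit), without Ezh2 ECKO 1 (0.0318%) or without Ezh2 ECKO 3 (0.0557%). The whole table rose with the list when other libraries were left out: 10 were called without WT 3 (9.09% of all tested genes) and 11 without Ezh2 ECKO 2 (18.5%). Without WT 2, 8 of the 36 genes (17% of all tested genes) were under an unadjusted p of 0.05. Fold changes on the log2 scale, with and without WT 2, were -2.52 (SE 0.43) and -2.0 for Irf7, -2.23 (SE 0.40) and -1.67 for Irf1, and -2.04 (SE 0.42) and -1.23 for Ifit3. Oasl2 stood at -1.80 and -1.31, Usp18 at -1.26 and -0.94, and Zbp1 at -2.27 and -0.52. Values did not overlap for 9 lower genes (10.9% of all tested genes) and no higher gene (11.1%). Without WT 2 there were 9 lower (13.6%) and 1 higher, Stat2 (14%). With the length trend removed, 5 genes were called (1.32%), 3 of them among the 6, and Ifit3, Ifit3b and Usp18 were no longer called.

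In beta-catenin GOF, 0 of 36 genes were called against WT by edgeR, as were 0% of all tested genes. At an unadjusted p under 0.05 there were 13 (6.07% of all tested genes), and 5 without WT 2 (4.27%). DESeq2 called 4, Ifit3, Ifit3b, Irf1 and Irf7 (0.303% of all genes), and without WT 3 edgeR called 3, Ifit3b, Irf1 and Irf7 (0.0318%). The log2 fold changes with and without WT 2 were -1.88 (SE 0.42) and -1.36 for Irf7, -1.59 (SE 0.39) and -1.03 for Irf1, and -1.71 (SE 0.42) and -0.90 for Ifit3. Isg15 stood at -0.65 and -0.25, Oas1a at -0.61 and -0.13, and Ifitm3 at -0.18 and 0.11. Values did not overlap for 10 lower genes (5.87% of all tested genes) and for Dhx58, which was higher (6.83%). Without WT 2 the same counts were set against 9.28% and 10.7%. The 10 lower genes were Irf7, the 4 Ifit genes, Oasl2, Ifi44, Parp9, Usp18 and Isg15.

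**Figure D4:**
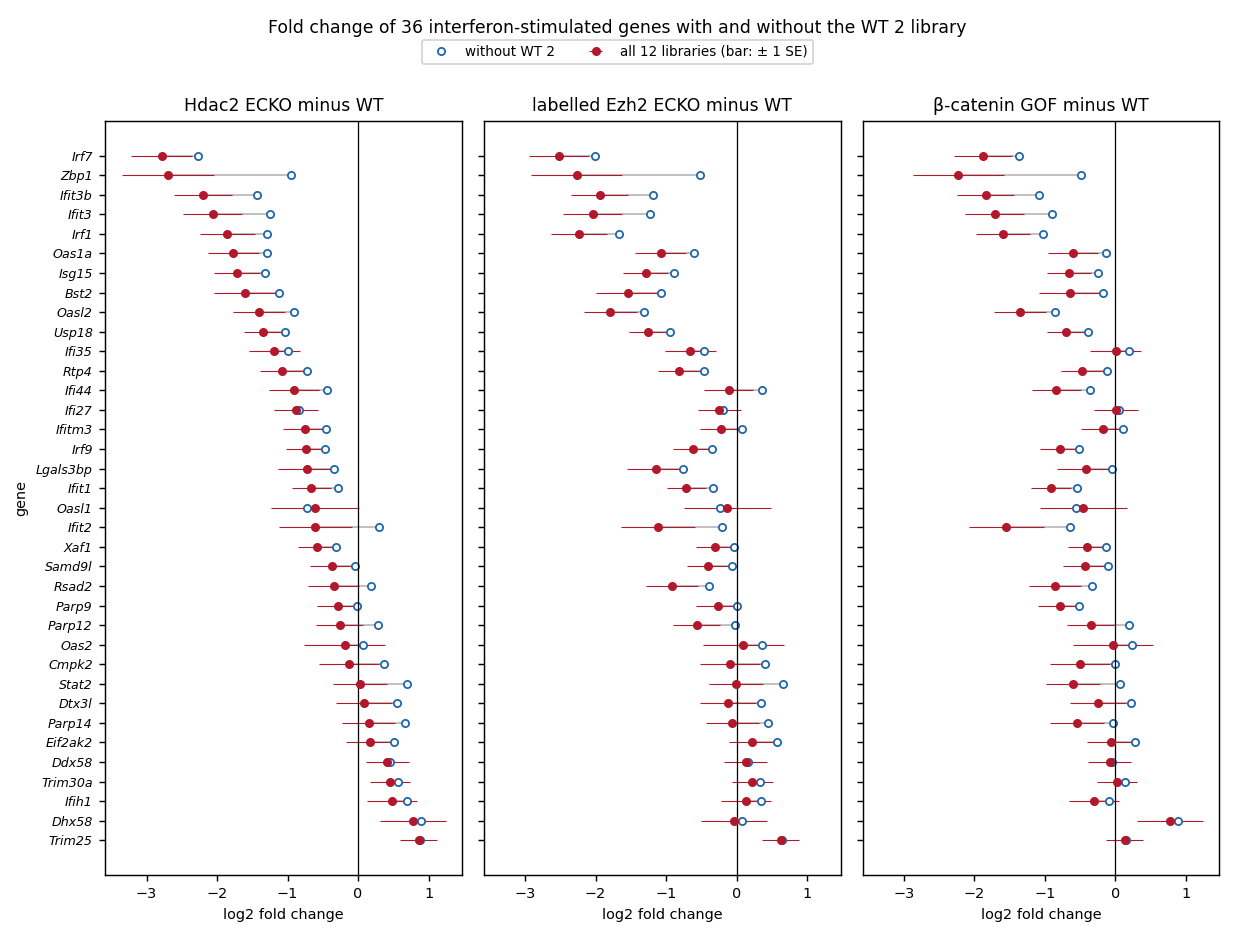
Fitted log2 fold change against WT of the 36 genes, in 3 panels by mutant; filled points are from all 12 libraries with bars of 1 SE, open points leave out WT 2. Open points lie nearer 0 for most genes, and for Zbp1 in Hdac2 ECKO the value moves from -2.70 to -0.95.

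The 6 genes Isg15, Ifit3, Ifit3b, Irf7, Oasl2 and Usp18 had all 9 mutant libraries below all 3 WT libraries, where 1.91% of all tested genes did. For 27 of the 36 genes all 9 mutant libraries were below WT 2 (14.7% of all tested genes), a library singled out for its level in these genes. For 17 of the 36, WT 1 and WT 3 both lay within the range of the mutants (52.8% of all tested genes).

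The mutants were then compared with each other in the same fit, which is also the test of whether their differences from WT differ. WT levels do not enter these differences, but the WT libraries share in the estimate of spread. Fits of only the 2 mutants compared also called 0 of 36 genes in each pair (0.0159%, 0.0716% and 0.0875% of all tested genes, in the order given here). Between Hdac2 ECKO and the Ezh2-labelled libraries, edgeR called 0 of 36 genes (0.0239% of all tested genes), 1 was under an unadjusted p of 0.05 (8.19%) and DESeq2 called 0 (0.783%). That gene was Ifi44, at 54.4 against 94.6 CPM (a log2 difference of -0.80 with SE 0.35 and edgeR adjusted p = 0.60). Values did not overlap for 3 genes lower in Hdac2 ECKO, Ifi27, Ifitm3 and Zbp1 (5.42% of all tested genes), and for Irf1, which was higher (7.78%). The median log2 fold change was -0.03, against 0.02 over all tested genes.

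Beta-catenin GOF was set against Hdac2 ECKO in the same way, and 0 of 36 genes were called by edgeR (0.0716% of all tested genes). An unadjusted p under 0.05 was found for 9 of 36 genes, or 25%, near the 21.1% of all tested genes. DESeq2 called 3, Ifi35, Isg15 and Oas1a (6.72% of all genes given an adjusted p). Without Hdac2 ECKO 2, edgeR called 2, Ifi35 and Oas1a (4.28% of all tested genes). These shares are close to those of the list. Isg15 was 2.09-fold higher in beta-catenin GOF (83.4 ± 14.0 against 39.9 ± 7.82 CPM, n = 3; log2 1.06, SE 0.32, edgeR adjusted p = 0.17). Oas1a was 2.24-fold higher (SE of the log2 value 0.36) and Ifi35, which binds Nmi, 2.28-fold higher (SE 0.37), each with an edgeR adjusted p of 0.17. Trim25 was 1.66-fold lower (SE 0.27, edgeR adjusted p = 0.17). Values did not overlap for 9 higher genes (16.1% of all tested genes) and 6 lower genes (15.9%). The higher ones were Isg15, Ifi35, Oas1a, Ifi27, Usp18, Irf7, Rtp4, Ifitm3 and Zbp1, and the lower ones Ifit2, Trim25, Parp14, Stat2, Rsad2 and Parp9.

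Against the Ezh2-labelled libraries, beta-catenin GOF showed 0 of 36 genes called by edgeR (0.0636% of all tested genes), 0 under an unadjusted p of 0.05 (13.2%) and 0 called by DESeq2 (1.15%). Without WT 2 in the fit, 4 were under an unadjusted p of 0.05 (11.9%). With all libraries the smallest edgeR adjusted p was 0.38, for Usp18, which was 1.47-fold higher in beta-catenin GOF (SE of the log2 value 0.27). Values did not overlap for 3 higher genes, Usp18, Irf1 and Lgals3bp (7.97%), and 2 lower genes, Stat2 and Trim25 (8.67%). A p that misses the threshold does not show that the mutants had equal levels.

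The rest of the interferon pathway was read from lists of ligands, receptors with their signal transducers, and genes that induce interferon. Of 21 interferon ligand genes none passed the filter, 12 had 0 counts in all libraries, and their summed level was at most 0.287 CPM. Ifnar1 had log2 fold changes of 0.35, -0.28 and 0.03 against WT in Hdac2 ECKO, the Ezh2-labelled libraries and beta-catenin GOF. Ifnar2 had -0.78, -0.62 and -0.18, Jak1 had 0.48, 0.43 and 0.35, and none of the 3 passed in any of these contrasts (edgeR adjusted p at least 0.087). Of 14 tested receptor and signal genes, 3 were called lower in Hdac2 ECKO, 1 in the Ezh2-labelled libraries and 0 in beta-catenin GOF. The shares of all tested genes were 5.38%, 0.684% and 0%. None was called higher (3.82%, 0.342% and 0% of all tested genes). In beta-catenin GOF 3 were under an unadjusted p of 0.05 (6.07%). Without WT 2 none was called (0%, 0.0159% and 0% of all tested genes). Then 6, 4 and 2 were under an unadjusted p of 0.05, against 25.4%, 17% and 4.27% of all tested genes.

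Socs1, the feedback inhibitor of Jak kinases, was at 15.5, 16.8 and 6.91 CPM in WT and between 0.908 and 3.23 CPM in the mutants. Its log2 fold change was -3.29 (SE 0.56, edgeR adjusted p = 0.032) in Hdac2 ECKO, against -2.82 (SE 0.55, edgeR adjusted p = 0.045) in the Ezh2-labelled libraries. Without WT 2 these were -3.07 and -2.59 (adjusted p = 0.091 and 0.16). Ifngr1 (-1.28, SE 0.35) and Il10rb (-1.23, SE 0.30), receptor chains for interferon gamma and for the interferon lambda and interleukin families, were also lower in Hdac2 ECKO. Of 14 tested inducers, 1 was called lower in Hdac2 ECKO, against 5.38% of all tested genes. It was Trex1, a DNA exonuclease that limits cytosolic DNA sensing (-2.55, SE 0.45, edgeR adjusted p = 0.032). Without WT 2 its value was -2.04 (edgeR adjusted p = 0.091). In the Ezh2-labelled libraries and beta-catenin GOF 0 were called (1.03% and 0% of all tested genes). There 4 and 2 inducers were under an unadjusted p of 0.05, as were 3111 and 763 of all 12577 tested genes.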

How the data were processed

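The deposited table gives 1 value per gene and library. Its title calls the values normalized, but they are whole numbers with totals that differ between libraries, and 79.5% to 84% of values from 10 to 50 are even, so they were used as raw counts of read mates, as deposited by the authors. Per the submitters' processing notes, FastQC, cutadapt, STAR, featureCounts, DESeq2 and the mm10 build were used; versions, the strand setting and filters are not given in the sources used here. Groups and replicate numbers came from the sample titles.

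The analysis used edgeR 4.0.16 (R 4.3.3, limma 3.58.1): TMM scaling, 12577 of 21638 genes whose mean count was 10 or more, and the quasi-likelihood F test in 1 model over 12 libraries, with Benjamini-Hochberg adjustment over all tested genes per contrast and a threshold of 0.05. CPM uses TMM-scaled totals. Alternatives were median-ratio scaling, library totals alone, no filter, a minimum mean count of 50, DESeq2 1.42.0, only the compared groups, a replicate block, removal of a gene-length trend and leaving out each library. The members and gene lists were chosen with earlier results of these data known. Values in every library were given for the 2 genes of highest mean CPM per role; Irf7, Zbp1, Ifit2, Ifit3b, Stat2, Trim25, Dhx58, Bst2 and others named with ranges were picked after their values were seen. Of other pathway genes, those past the threshold, with Ifnar1, Ifnar2 and Jak1, were named (a further gene is not reported here), as were the 10 genes outside the list with the largest WT 2 ratio. WT 2 was chosen as the WT library with the highest mean log2(CPM + 0.5) over the genes.

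Table positions matched GENCODE M21 on GRCm38 for 21281 of 21638 genes after 1 was added to the start. Replicate libraries differed by more than sampling noise (chi-square per degree of freedom at least 66.3). Deviations from the group mean of same-numbered Hdac2 ECKO and Ezh2-labelled libraries correlated weakly (r from 0.11 to 0.38). By this measure Hdac2 ECKO 1 was nearest to Ezh2 ECKO 3. In the other contrasts some r was under 0.1. The labels name no pairing, and the fit behind the results had no term for replicate number. That number entered only as the replicate block among the alternatives. In simulated counts for Hdac2 ECKO against WT (12577 genes, 200 changed), edgeR recovered 65% of genes changed by log2 2 and 81% of those changed by log2 3, and 2.67% of 150 calls were unchanged genes. The simulation drew each gene independently, with no shift shared by many genes of a library and no gene-length trend. Its rates therefore do not carry over to the calls in these data. The reads carry no molecular identifiers, so the floor of 3 counts covers counting error only. Xist and genes of the Y chromosome were left out.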

Additional observations from a re-analysis of the deposited data

How the results depend on the processing

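The count of genes called against WT was 10 to 14 for Hdac2 ECKO under every alternative that kept all libraries except DESeq2, which called 17 (11 with the stated settings, all 11 among the 17), and 9 with the length trend removed. Shares of all genes moved with it, from 9.2% to 20.3% with DESeq2. For the Ezh2-labelled libraries (6 called), scaling by library total gave 2, no filter 13, DESeq2 10 and a fit of only the compared groups 0, with 0.239%, 6.72%, 10.1% and 0.135% of all genes called against 1.03%. For beta-catenin GOF (0 called), no filter gave 7 (0.772% of all genes) and DESeq2 4 (0.303%); against Hdac2 ECKO (0 called), no filter gave 4 (4.81%) and DESeq2 3 (6.72%). The cause was not tested. Scaling by library total moved the median of all genes in Hdac2 ECKO against WT from 0.10 to 0.34, and that of the list from -0.64 to -0.40. Leaving out 1 library gave counts of 0 to 14 for Hdac2 ECKO, 0 to 11 for the Ezh2-labelled libraries and 0 to 3 for beta-catenin GOF against WT, 0 to 2 for beta-catenin GOF against Hdac2 ECKO, and 0 in the other contrasts. The medians ran from -0.74 to -0.33, -0.66 to -0.20 and -0.75 to -0.12 against WT, from -0.11 to 0.07 for Hdac2 ECKO against the Ezh2-labelled libraries, and from -0.03 to 0.15 and -0.10 to 0.09 for beta-catenin GOF against Hdac2 ECKO and the Ezh2-labelled libraries. The share of all genes at least 4-fold higher in WT 2 (0.437%) was 0.295% without the filter, 3.58% at 2-fold and 0.175% at 8-fold. With the replicate number as a block, 13, 8 and 0 genes were called against WT and 0 in each contrast between mutants, so the block changed no count of the list by over 1.5 times. Over all genes it moved the count from 1157 to 1832 for Hdac2 ECKO and from 129 to 536 for the Ezh2-labelled libraries against WT. Of 672 alternative values for the 16 genes given in full, 22 moved by more than the spread between replicates, 13 of them on leaving out 1 library. No called value changed sign. At this depth, Oas3 and the interferon genes were too low to compare.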

Other observations

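The 10 genes outside the list with the largest ratio of WT 2 to the mean of WT 1 and WT 3 included the interferon-inducible GTPases Igtp, Iigp1, Tgtp1 and Tgtp2. Igtp had the largest ratio and was at 70.0, 1866 and 92.6 CPM in WT 1, 2 and 3, a ratio of 22.8, against at most 76.5 CPM in any mutant library. Iigp1 was at 157, 1894 and 84.4 CPM, a ratio of 15.6. Tgtp1 and Tgtp2 had ratios of 17.7 and 17.6; they are near copies, and the split of reads between them is uncertain. Gbp10 (16.6) and Gbp8 (14.7) are guanylate-binding proteins, and H2-DMa (15.6) helps to load peptides on MHC class II. The remaining genes were Crym (20.7, the second largest), which encodes mu-crystallin, Gm12185 (18.4) and Gm43302 (14.9). Crym was at 10.6 CPM in WT 2. Each of these 10 ratios was above the highest within the list, 7.84 for Zbp1.

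Another list, of 55 tested interferon-stimulated genes, was also drawn up with earlier results known. Of these, 16 were called lower in Hdac2 ECKO (5.38% of all tested genes) and 2 in the Ezh2-labelled libraries (0.684%). The 2 were Slfn2 and Igtp, whose high level in WT 2 is given above. In beta-catenin GOF 0 were called (0%), and 20 were under an unadjusted p of 0.05 (6.07%). None was called higher in any of these contrasts (3.82%, 0.342% and 0% of all tested genes). The 16 included Psmb8 (log2 fold change -1.89) and Psmb9 (-1.87), subunits of the immunoproteasome, Ube2l6 (-2.57), which conjugates Isg15, and Ly6e (-1.46), a surface protein that restricts virus entry. Median log2 fold changes of the 55 genes were -1.04, -0.87 and -0.67 in the 3 mutants, and -0.35, -0.36 and -0.21 without WT 2, when edgeR called 0 in each (16, 14 and 4 under an unadjusted p of 0.05, against 25.4%, 17% and 4.27% of all tested genes).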
